A study of Mus musculus with 78 samples.

Results

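The 92 genes described here carry the symbols of cytosolic ribosomal proteins, the proteins that fold with ribosomal RNA into the cytoplasmic ribosome. They were chosen by symbol alone among the 54446 genes of the RNA-seq tables, as names of the Rpl or Rps series with a number, together with Rplp0, Rplp1, Rplp2 and Rpsa. Names marked as pseudogenes by the suffix -ps, the Rps6k kinases and Rps27l were left out. The 92 comprise 77 core genes, which encode a protein of the standard ribosome (46 of the large subunit and 31 of the small subunit), and 15 others. The others are paralogs such as Rpl10l and Rpl39l, copies of which 7 are annotated as processed pseudogenes, and Rps19bp1, which encodes a protein that binds RPS19. No measured value entered the choice.

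Each ribosome holds a single copy of nearly every one of these proteins, and cells make them in matched amounts. The messages are short, stable and among the most abundant in dividing cells. In mammals they begin with a run of pyrimidines at the cap, the terminal oligopyrimidine tract, through which the mTOR pathway adjusts their translation. Mouse embryonic stem cells (mESCs) divide fast, and MYC proteins are known to promote the expression of ribosomal protein and ribosome biogenesis genes.

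The study used V6.5 mESCs in which TRIM28, a co-repressor of endogenous retroviruses (ERVs), carries an N-terminal FKBP tag, and a line grown from a single colony was used. Adding 500 nM dTAG-13 leads the tagged protein to the proteasome, and DMSO was the vehicle. RNA-seq of polyadenylated RNA covered the tagged line in DMSO and after 2, 6, 24 and 96 h of dTAG-13, the untagged and untreated parental line, and neural progenitor cells (NPCs) in DMSO. TT-SLAM-seq, which enriches RNA labelled with 4-thiouridine over a short pulse and thereby reads nascent transcription, covered DMSO and 2, 6 and 24 h. A further TRIM28-FKBP line, called shERV, carries doxycycline (Dox)-inducible short hairpins against 4 ERV families and was profiled with a total-RNA kit under 3 conditions, namely DMSO, 24 h of dTAG-13, and dTAG-13 combined with Dox. The titles and treatment labels name Dox for the last condition alone, while the treatment notes mention 24 h of Dox pretreatment for all of them, so whether the other groups had Dox is not certain. The labels also mention irradiated feeder fibroblasts in the cultures of parental and shERV cells. Every RNA group had 3 samples, which the labels call separate samples without naming a separate clone, so that p-values measure the spread between samples of 1 line. ChIP-seq for H3K27Ac, RNAPII, the Mediator subunit MED23 and H3K9me3 covered DMSO and 24 h of dTAG-13. TRIM28 is removed as a protein, and its mRNA, which encodes the tagged product, is no check of the degradation.

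Levels in RNA-seq are TPM, a value per length of transcript that is relative to all other transcripts of the library. Levels in TT-SLAM-seq are FPKM per length of genomic span. A gene was tested at 1 TPM or more, or 0.5 FPKM or more, in at least 3 libraries of a fit, and all 92 genes passed in the time course, 91 in the shERV line (not Rpl3l), 92 in the fit with parental cells and NPCs, and 85 in TT-SLAM-seq. Differences are on the scale of log2(value + 0.5) with standard errors (SE), and adjusted p-values come from limma with Benjamini-Hochberg adjustment over all genes tested. The words rose and fell mark an adjusted p below 0.05. Relative sequencing depth of the RNA-seq libraries ran from 0.289 of the median library (24 h, replicate 1) to 1.49. TT-SLAM-seq libraries held between 6480611 and 24259317 reads, of which the 92 genes took 0.545% to 0.821%, with a median of 387 to 1652 reads per gene. In bulk RNA, fewer cells of a type and less RNA per cell cannot be told apart.

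The start sites are shown first because they carry the feature by which this gene family is best known. RefSeq promoters on GRCm38.p6 were matched for 67 of the 92 genes. Each line gives 15 bases before the annotated start and 15 bases from the start on, read 5′ to 3′ on the gene's strand, with a tract in capitals where C is followed by at least 4 of C or T and begins within 5 bases of the start. The first 6 genes have such a tract, and the last 3 (Rpl10l, Rpl39l and Rpl22), whose RNA is described in detail further on, have none.
Rpl12, chr2:32961697-32961726, + strand: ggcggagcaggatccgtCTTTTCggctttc
Rpl13a, chr7:45128731-45128760, - strand: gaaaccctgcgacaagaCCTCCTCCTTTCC
Rpl28, chr7:4792950-4792979, + strand: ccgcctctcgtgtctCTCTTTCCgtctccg
Rpl35, chr2:39005117-39005146, - strand: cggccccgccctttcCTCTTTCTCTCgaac
Rps6, chr4:86857353-86857382, - strand: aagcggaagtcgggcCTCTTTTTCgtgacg
Rps27, chr3:90213634-90213663, - strand: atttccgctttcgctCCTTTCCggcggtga
Rpl10l, chr12:66284387-66284416, - strand: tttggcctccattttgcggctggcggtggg
Rpl39l, chr16:10170213-10170242, + strand: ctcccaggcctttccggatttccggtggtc
Rpl22, chr4:152325711-152325740, + strand: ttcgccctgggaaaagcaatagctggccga

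A tract at the start was found in 29 of the 67 matched genes (43.3%), against 20.5% of the 11294 matched genes tested in the time course and 18.7% of all 20484 promoters. RefSeq starts can lie some bases from the main start used by a cell, so genes without a tract in this window may still begin with one. In the 300 bases around the start (250 before, 50 after), CCGGAAG, a site of the ETS family, was found on either strand in 24 of the 67 (35.8%), against 17.7% of the tested genes. ATGGCNGC, the core of the YY1 site, was found in 9 (13.4% against 9.6%). TATAAA within 40 bases before the start was found in 1 gene, Rpl22l1 (1.49% against 1.7%). These counts describe letters in a window and do not show binding.

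In the tagged line in DMSO, the core genes lay between 267 and 3464 TPM, with a median of 1584. Rps12 was the highest at 3464 TPM on average and ranked 23rd of all genes, followed by Rps2 at 3258, Rplp1 at 3255 and Rpl4 at 3199. Rps12 was measured at 3512, 3634 and 3245 TPM in the 3 samples, Rps2 at 3243, 3383 and 3146, and Rplp1 at 3259, 3404 and 3101, so that these 3 overlapped. The 15 others lay between 0.967 and 714 TPM with a median of 119. The lowest were Rpl3l, the striated muscle paralog of Rpl3, at 0.967 TPM, the copy Rpl32l at 8.57 and Rpl39l at 28.8.

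The 92 genes together held 13.1% ± 0.561 (SD, n = 3) of the summed TPM in DMSO. After 2, 6, 24 and 96 h of dTAG-13 their share was 12.5% ± 0.179, 11.2% ± 0.472, 11.6% ± 0.501 and 10.1% ± 0.0219. The samples at 6, 24 and 96 h all lay below every DMSO sample, with a two-sided exact permutation p of 0.1 at each time, the smallest that 3 against 3 samples allow, whereas p was 0.3 at 2 h. Large-subunit genes went from 7.40% in DMSO to 5.66% at 96 h and small-subunit genes from 5.39% to 4.26%. The 15 others went from 0.313% to 0.241% at 24 h and 0.212% at 96 h. Transcripts of the mitochondrial genome, which are counted in the same total, held 6.78% in DMSO, 10.6% at 6 h and 10.3% at 24 h, without overlap (exact permutation p = 0.1), and 3.69% at 96 h. With those transcripts left out of the total, the ribosomal protein genes held 14.1% in DMSO and 12.6%, 12.9% and 10.5% after 6, 24 and 96 h.

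**Figure D1:**
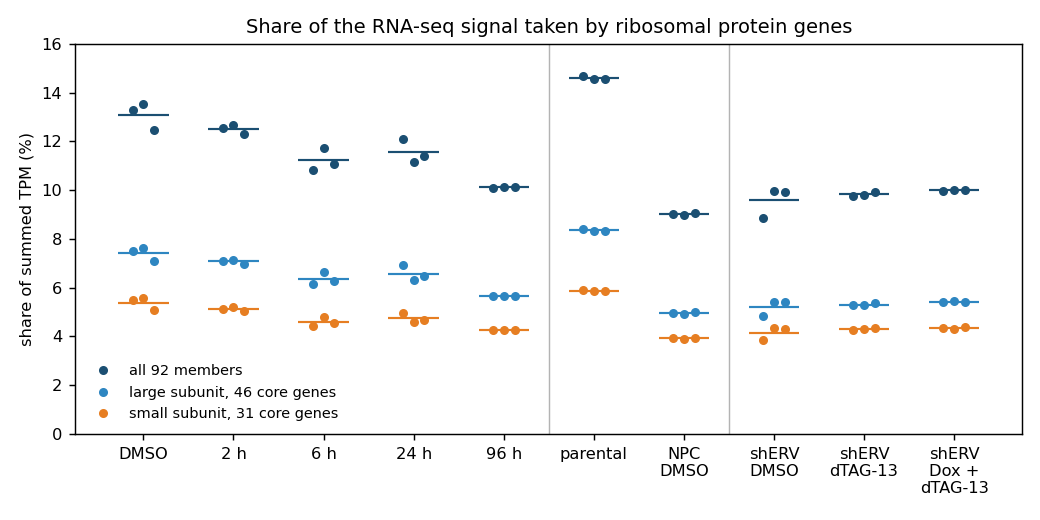
Share of the summed TPM (%, vertical axis) held by all 92 genes, the 46 large-subunit and the 31 small-subunit genes in each RNA-seq library, by group. Points are libraries and lines are means of 3. In the time course the share for all 92 genes went from 13.1% in DMSO to 10.1% at 96 h, parental cells were highest at 14.6% and NPCs lowest at 9.03%.

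Across the time course most ribosomal protein mRNAs were slightly lower after dTAG-13, and few changed by much. At 2 h none passed the test in either direction (9 had an unadjusted p below 0.05), where 8.25% of all 17922 tested genes were called higher and 7.02% lower by limma. At 6 h, 70 of 92 fell and none rose, with 15.5% of all tested genes lower and 18.4% higher. At 24 h, 62 fell and 1 rose (background 25% lower, 42.9% higher). At 96 h, 84 fell and 1 rose (37.4% lower, 42.9% higher). The median log2 differences over the 92, in the order of the times, were -0.07, -0.21, -0.19 and -0.40, beside -0.02, 0.03, 0.13 and 0.05 over all tested genes. All 4 times are compared with the same 3 DMSO samples. Without DMSO replicate 3, 4 genes fell at 2 h and 1 rose at 6 h, without replicate 2 of 6 h, 1 fell at 2 h, and without DMSO replicate 1 or 2, 2 rose at 24 h.

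Both subunits took part. Of the 46 large-subunit genes, 35, 31 and 45 fell after 6, 24 and 96 h, and of the 31 small-subunit genes 28, 22 and 27 did. The core genes were spread narrowly. At 24 h, 80% of them lay between -0.34 and -0.04, where the same share of all tested genes spanned -0.52 to 1.01, and at 96 h between -0.54 and -0.21, where all tested genes spanned -1.14 to 1.61. Past 2-fold, none was called at 6 h (0.19% of all tested genes were lower), Rpl10l alone fell at 24 h (2.01% of all tested genes were lower by this rule), and Rpl10l and Rps12l1 fell at 96 h (12.4%). At 96 h, summed TPM of 6 pluripotency markers was 188 to 216 against 1745 to 1814 in DMSO, and that of 10 feeder fibroblast markers 1887 to 1997 against 303 to 320.3, with 9 of the 10 at 1 TPM or more. Summed TPM of 6 endoderm markers was 82.8 to 87.0 at 96 h against 25.0 to 30.9 in DMSO. The paper's methods describe depletion of feeder cells before RNA-seq. The part of any of these markers in the 96 h values was not tested. At 24 h the summed feeder markers lay at 315 to 331, near the level in DMSO, and the summed pluripotency markers at 969 to 1058. Single markers went both ways at 24 h. Among feeder markers, log2 differences were 1.29 for Postn, 0.99 for Col1a2, 0.74 for Col6a1 and 0.44 for Col1a1. They were 0.16 for Fn1, 0.08 for Col3a1, -0.16 for Thy1 and -0.44 for Acta2. Among pluripotency markers, Nanog was at 0.54, Klf4 at -1.89, Zfp42 at -1.26, Pou5f1 at -1.11, Esrrb at -0.65 and Sox2 at -0.64.

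**Figure D2:**
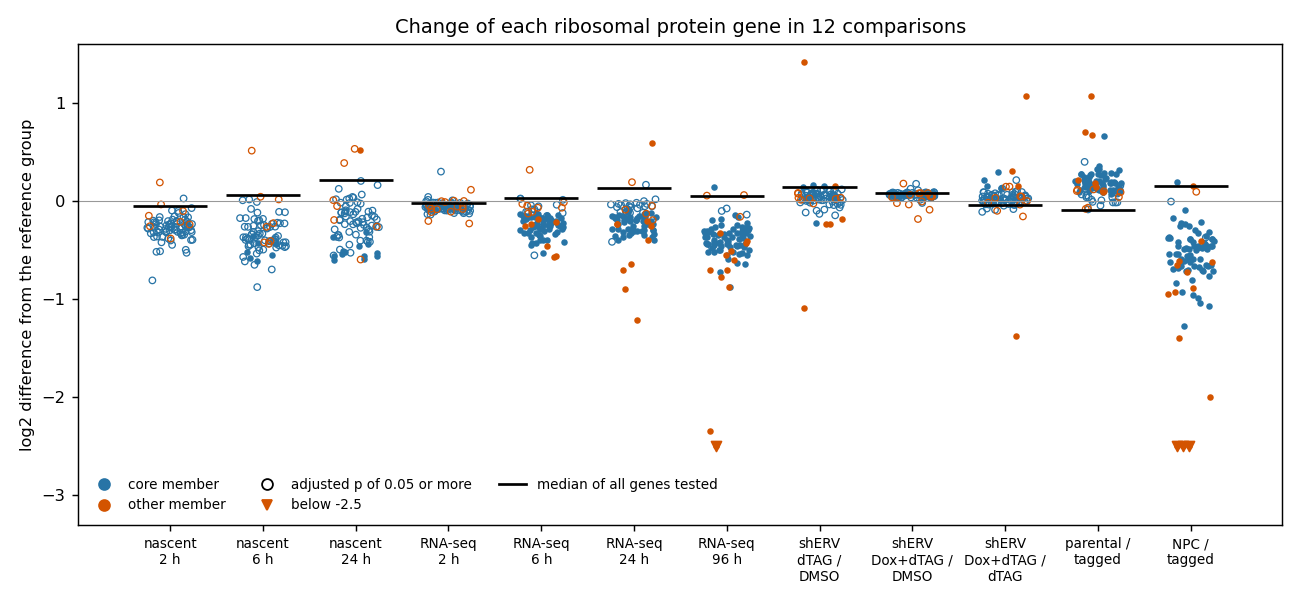
Log2 difference (vertical axis) of each ribosomal protein gene in 12 comparisons, with core genes in blue and others in orange. Filled points have an adjusted p below 0.05, black bars are the median of all tested genes, and triangles mark genes with lower fitted differences than the height at which they are drawn, among them Rps12l1 at 96 h and Rpl10l in NPCs, which were listed at 0 there. Most core genes lie under the all-gene median at 24 h and 96 h and in NPCs, where the median of the core genes is -0.49.

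The stalk of the large subunit, built from Rplp0, Rplp1 and Rplp2, recruits the translational GTPases to the ribosome. Rplp0 was measured at 2438, 2525 and 2287 TPM in DMSO and at 1986, 1791 and 1844 TPM at 24 h, with no overlap (log2 difference -0.37), and lay at -0.30 at 96 h. Rplp1 fell at 6 h (-0.29) and 96 h (-0.28), and its 24 h difference of -0.11 did not pass the test (adjusted p = 0.205, limma). Rplp2 fell at 24 h (-0.17) and more at 96 h (-0.50). Rpl5 and Rpl11, which join 5S ribosomal RNA and, when free, bind the p53 regulator MDM2, were measured at 1064, 1037 and 974 TPM and at 1663, 1703 and 1539 TPM in DMSO. At 96 h Rpl5 lay at 750.4, 749 and 744 TPM (-0.45) and Rpl11 at 1219, 1218 and 1202 TPM (-0.43), both below every DMSO sample. At 24 h Rpl5 fell by 0.15, while Rpl11 had a difference of -0.07 (adjusted p = 0.24).

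Around the exit tunnel, Rpl4 had a difference of -0.03 at 24 h and fell at 96 h (-0.55), and Rpl17 fell at both times (-0.12 and -0.22). At the mRNA entry site of the small subunit, Rps3 fell at 24 h (-0.30) and 96 h (-0.28), Rps9 likewise (-0.21 and -0.34), and Rps2 at 6 h already (-0.33), with later differences of -0.16 and -0.19. The 5 largest falls at 6 h without overlap were those of Rpl10l, Rpl22l1, Rps14, Rpl39l and Rpl9. Among them Rps14, which binds near the decoding site, was measured at 1559, 1659 and 1464 TPM in DMSO and at 861, 1272 and 1136 TPM at 6 h (-0.54), and Rpl9 fell by 0.44.

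A single core gene was higher at 96 h. Rps19, whose human counterpart is mutated in Diamond-Blackfan anaemia, was measured at 1291, 1351 and 1258 TPM in DMSO, at 1218, 1097 and 1148 TPM at 24 h (-0.17), and at 1441, 1422 and 1441 TPM at 96 h (0.14 ± 0.06, adjusted p = 0.0381). It fell at 24 h and rose at 96 h, and with differences centred on the median of all tested genes the 96 h value became -0.13. The rise was not called without DMSO replicate 1 or 3 or any 96 h replicate. Rps12 fell at 24 h, to 2976, 3009 and 2996 TPM (-0.21), and at 96 h to 2269.5, 2175 and 2215 TPM (-0.64). Its copy Rps12l1, a processed pseudogene at chr7:56014016-56014414 (GRCm38, + strand) that shares sequence with Rps12, was listed at 93.9, 98.0 and 87.7 TPM in DMSO, at 78.9, 77.6 and 81.2 TPM at 24 h, and at 0 in all 3 samples at 96 h. How reads were divided between Rps12 and this copy is not known, and no fold is given for it at 96 h.

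The mouse X chromosome carries Rpl10, Rpl36a, Rpl39 and Rps4x, and each has an autosomal relative in the set. Rpl10l and Rpl39l are retrogenes known from the testis, where they stand in for X-linked parents that are silenced in meiosis. Rpl36al is a further autosomal copy, and Rps4l is annotated as a transcribed processed pseudogene. Among the X-linked parents, Rpl10 fell at 24 h (-0.35) and 96 h (-0.37), and Rps4x, at 2179, 2219 and 2088 TPM in DMSO, fell at both times too (-0.20 and -0.44). Rpl36a fell at 96 h (-0.59) but not at 24 h (-0.04, adjusted p = 0.456, limma), and Rpl39 fell at 6 h (-0.43) and 96 h (-0.36), with a 24 h difference of -0.11 (adjusted p = 0.185). The autosomal copies were more varied.

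Rpl10l (chr12:66283379-66284401, - strand, GRCm38) was measured at 30.9, 34.8 and 28.3 TPM in DMSO. It lay at 19.3, 24.4 and 19.1 TPM at 6 h, at 13.2, 13.3 and 13 TPM at 24 h, and at 5.23, 6.89 and 5.32 TPM at 96 h. Each of these groups lay below every DMSO sample, and the 24 h and 96 h samples were ordered without overlap. The log2 differences were -0.57 ± 0.11 (SE, adjusted p = 0.00134), -1.22 ± 0.11 (2.3e-07) and -2.34 ± 0.11 (4.96e-11). In TT-SLAM-seq the gene did not pass the filter. Its start is the window without a tract printed above.

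Rpl39l (chr16:10170226-10174911, + strand) was measured at 31.2, 31.6 and 23.6 TPM in DMSO, at 18.7, 22.0 and 21.3 TPM at 6 h, and at 31.2, 33.2 and 33.6 TPM at 24 h. It fell at 6 h (-0.46, adjusted p = 0.00278, limma) and was back in the range of DMSO at 24 h, where its difference was 0.19 ± 0.10 (adjusted p = 0.094). Rps4l (chr6:148354656-148355598, + strand) was far more abundant, at 709.7, 751 and 683 TPM in DMSO against 470.3, 444 and 459 TPM at 24 h (-0.64 ± 0.05, adjusted p = 9.3e-08), and its 96 h difference was -0.52. Rpl36al, at 553, 529 and 524 TPM in DMSO, fell to 425, 398 and 392.3 TPM at 24 h (-0.40) and to 322, 326 and 339 TPM at 96 h (-0.70). For Rps4l, Rpl36al and the other copies with X-linked parents of near-identical sequence, the tables do not show how shared reads were assigned.

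**Figure D3:**
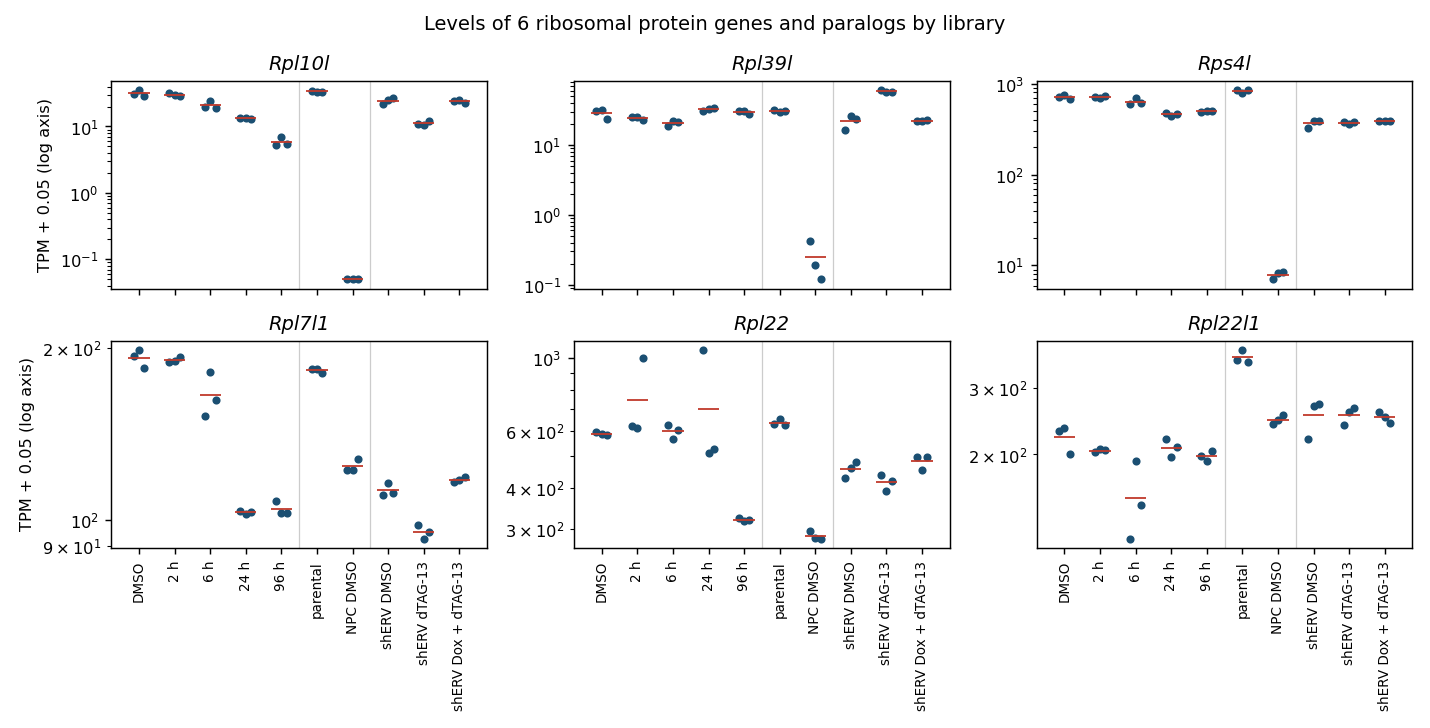
TPM + 0.05 (log axis) of Rpl10l, Rpl39l, Rps4l, Rpl7l1, Rpl22 and Rpl22l1 in each RNA-seq library, by group, with red lines at the group means. Rpl10l stepped down through the time course and in the shERV line with dTAG-13, where Rpl39l stood at 57.7 to 60.4 TPM, and both were near or at 0 in NPCs.

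Rpl7l1 (chr17:46773907-46782672, - strand), a paralog of Rpl7 that acts in the assembly of the large subunit, fell from 193, 198 and 184 TPM in DMSO to 104, 102 and 103 TPM at 24 h (-0.89 ± 0.05, adjusted p = 3.44e-09) and lay at 108, 103 and 103 TPM at 96 h (-0.87). Rps19bp1 (chr15:80260615-80264315, - strand) fell from 69.7, 64.2 and 67.9 TPM to 41.9, 37.9 and 43.1 TPM at 24 h (-0.71 ± 0.05, adjusted p = 2.44e-08) and less at 96 h (-0.33). Both groups of each gene were apart. Rpl3l (chr17:24727820-24736143, + strand) was the 1 gene that rose at 24 h, at a low level, from 0.981, 0.825 and 1.09 TPM to 1.85, 1.47 and 1.81 TPM (0.59 ± 0.12, adjusted p = 0.000535), and it fell at 96 h to 0.440, 0.332 and 0.300 TPM (-0.77). It passed the filter of 1 TPM through the samples at 6 and 24 h, where it was high, so its values are a description only. Without the mitochondrial transcripts in the total, 2 genes rose at 24 h.

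Rpl22 and Rpl22l1 encode paralogous proteins, and RPL22 is known to bind the Rpl22l1 transcript and lower its level. Rpl22 (chr4:152325742-152334071, + strand) was measured at 594, 585 and 583 TPM in DMSO. It lay at 618, 611 and 999 TPM at 2 h and at 1060.2, 512 and 526 TPM at 24 h, so that 1 sample at each time was far above the others, at 24 h that of the shallowest library. At 96 h its values of 323, 317 and 319.8 TPM were below every DMSO sample (-0.88 ± 0.23, adjusted p = 0.00273). Rpl22l1 (chr3:28805436-28807424, + strand) was measured at 231, 234 and 201 TPM in DMSO and fell at 6 h to 119.9, 192 and 148 TPM (-0.56).

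In nascent RNA few of the genes passed the test, and the counts of calls depended on single libraries. None of the 85 tested genes was called at 2 h (22 had an unadjusted p below 0.05, limma), where 1.97% of all 13357 tested genes were lower and 1.58% higher. At 6 h, 7 fell and none rose (background 1.27% lower, 7.82% higher), and at 24 h, 13 fell and 1 was called higher (5.59% lower, 32.3% higher). The latter is the copy Rpl37rt, which passed the filter through its 24 h samples alone. The median log2 differences were -0.27, -0.37 and -0.22, beside -0.05, 0.06 and 0.21 over all tested genes. Groups that did not overlap, with the dTAG-13 samples lower, were seen for 22 genes at 2 h (17.1% of all tested genes) and for 38 genes at 6 h (7.55%). Without DMSO replicate 3, in which the 92 genes had the lowest share of the summed FPKM among DMSO samples (0.806%), 30 fell at 6 h and 34 at 24 h. Without DMSO replicate 1 these counts were 0 and 4, and without DMSO replicate 2 they were 0 and 4. For 6 h the count was 13 without replicate 3 of 2 h, 0, 1 and 2 without 6 h replicates 1, 2 and 3, 2 without replicate 1 or 2 of 2 h, and 2, 4 and 3 without 24 h replicates 1, 2 and 3. For 24 h it was 5 and 6 without 24 h replicates 2 and 3, while 2 rose without DMSO replicate 1 and none without 24 h replicate 1 or 3. At 2 h, 2 fell without DMSO replicate 3 and 1 without replicate 2 of 6 h.

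The noncoding transcript Gm26917 took 29.3% to 35.0% of the TT-SLAM-seq reads in DMSO and 15.3% to 18.5% at 24 h. With this gene left out of the scaling, none fell at 6 h, and 3 fell and 2 rose at 24 h. In summed FPKM the 92 genes took 0.973% ± 0.145 (SD, n = 3) in DMSO, 0.808% at 2 h, 0.872% at 6 h and 1.10% at 24 h, with two-sided exact permutation p-values of 0.3, 0.3 and 0.4. The 24 h difference of 0.124 points became -0.14 points without Gm26917 and ranged from 0.0401 to 0.191 points with 1 library left out. With mitochondrially encoded genes left out of the total instead, the share at 24 h was 1.41% against 1.10% in DMSO, without overlap (0.312 points, exact permutation p = 0.1, the smallest possible). At 2 h the share without Gm26917 was 1.50% against 1.76%, again without overlap (p = 0.1, exact permutation test). Counted as reads in place of summed FPKM, the share spanned 0.604% to 0.658% at 24 h, overlapping 0.628% to 0.821% in DMSO. When Gm26917 reads were excluded, DMSO libraries ranged from 0.967% to 1.20%. Every dTAG-13 library was below that range: 0.890% to 0.930% (2 h), 0.766% to 0.803% (6 h), 0.731% to 0.807% (24 h). These read shares were not tested. Differences centred on the median of all tested genes gave 20 genes lower at 6 h and 53 at 24 h, and voom on reads recovered from the FPKM gave 68 and 74. Shares of all tested genes under these settings are not reported here, so these counts have no background beside them.

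The genes that fell in nascent RNA at 6 h were Rpl12, Rps15, Rpl35, Rps2, Rplp0, Rps3 and Rpl6. Rpl12, a protein at the base of the stalk whose gene starts with the tract CTTTTC printed above, had 38.5, 38.6 and 32.7 FPKM in DMSO, 25.9, 21.1 and 24.3 FPKM at 6 h (-0.61 ± 0.13, adjusted p = 0.0239, limma), and 35.8, 33.3 and 32.0 FPKM at 24 h. All 3 samples at 6 h lay below DMSO, and those at 24 h overlapped it. Rps15 had 22.8, 23.5 and 22.4 FPKM in DMSO and 15.2, 13.2 and 17.3 FPKM at 6 h (-0.58), again without overlap. Rpl35 lay at -0.55, Rps2 at -0.52, Rplp0 at -0.44, Rps3 at -0.43 and Rpl6 at -0.36. None of Rpl12, Rps15, Rpl35, Rps2 and Rplp0 passed the test without DMSO replicate 1.

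At 24 h the largest falls in nascent RNA without overlap were those of Rpl30, Rps9, Rps7, Rpl41 and Rpl21. Rpl30, which binds its own transcript in yeast, had 30.5, 31 and 22.8 FPKM in DMSO and 18.0, 17.4 and 19.1 FPKM at 24 h (-0.60 ± 0.15, adjusted p = 0.00986), without overlap. Rps9 lay at -0.56, Rps7 at -0.56, Rpl41 at -0.56, Rpl21 at -0.54, Rplp2 at -0.53 and Rplp0 at -0.46. The copy Rpl37rt had 0.429, 0.346 and 0.322 FPKM in DMSO and 0.668, 0.676 and 0.882 FPKM at 24 h. Only the 24 h samples reached the 0.5 FPKM of the filter, so a higher value there was needed for it to be tested at all, and its difference of 0.52 supports nothing. Across the 85 genes, the nascent and steady-state differences at 24 h had a Pearson r of 0.23 and a Spearman rho of 0.30, and at 6 h an r of 0.08 and a rho of 0.06. These are descriptions across genes, which are not independent replicates.

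In the shERV line the share held by the genes did not pass the test after dTAG-13. They held 9.59% ± 0.624 of the summed TPM in DMSO, 9.84% ± 0.0883 with dTAG-13 and 10.0% ± 0.0177 with Dox and dTAG-13 (SD, n = 3 each). DMSO replicate 1 stood at 8.87% and the highest DMSO sample at 9.97%, and the exact permutation p for dTAG-13 was 0.9. Without DMSO replicate 1 the difference of 0.254 points became -0.11 points. Of the 91 tested genes, 5 rose and 5 fell with dTAG-13 (41.2% of all tested genes higher, 12.8% lower), with a median of 0.03 beside 0.14 over all genes. Centred on the median of all tested genes, 1 rose and 72 fell, with no share of all tested genes reported for that setting. The count of falls was 11 without DMSO replicate 1, 3 without DMSO replicate 2 or 3, and 2 and 3 without dTAG-13 replicates 1 and 3, and the count of rises was 1 and 2 without dTAG-13 replicates 1 and 3.

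With Dox and dTAG-13 against DMSO, no gene was called in either direction by limma (0.0495% of all tested genes higher, 0.0124% lower, and 3 members with an unadjusted p below 0.05). The share differed by 0.409 points, without overlap (exact permutation p = 0.1, the smallest possible), and by 0.049 points without DMSO replicate 1. With Dox and dTAG-13 against dTAG-13 alone, 7 rose and 1 fell (17.5% higher, 29.3% lower). Centred on the median of all tested genes, 52 rose and 1 fell. Without DMSO replicate 1, which enters this comparison only through the shared spread and the filter, 15 rose and 4 fell. Without dTAG-13 replicate 3, or without Dox and dTAG-13 replicate 1, 4 rose. This comparison shares the dTAG-13 samples with the one before it, so the opposite signs that follow are not independent.

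The genes that changed most in the shERV line were Rpl10l, Rpl39l and Rpl7l1. Past 2-fold with dTAG-13, Rpl39l rose (2.38% of all tested genes were higher by this rule) and Rpl10l fell (1.44% lower). Rpl10l was measured at 21.6, 25.1 and 26.6 TPM in DMSO, 10.8, 10.6 and 12.0 TPM with dTAG-13 (-1.10 ± 0.08, adjusted p = 5.82e-07, limma), and 24.6, 24.7 and 22.7 TPM with Dox and dTAG-13 (1.07 ± 0.08 against dTAG-13, adjusted p = 7.9e-07). With Dox, its samples lay within the DMSO range. Rpl39l moved the other way, from 16.6, 26.0 and 23.3 TPM in DMSO to 60.4, 57.7 and 57.9 TPM with dTAG-13 (1.42 ± 0.12, adjusted p = 2.03e-06), and lay at 21.8, 22.3 and 22.7 TPM with Dox and dTAG-13 (-1.38 ± 0.12 against dTAG-13, adjusted p = 3.02e-06), 0.04 ± 0.12 from DMSO (adjusted p = 0.842). Rpl7l1 fell from 110.3, 116 and 112 TPM to 98.1, 92.5 and 95.0 TPM (-0.24, adjusted p = 0.000319) and rose with Dox to 116, 117 and 119 TPM (0.30, adjusted p = 8.04e-05). In both latter comparisons its groups did not overlap.

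The other calls with dTAG-13 in the shERV line were small. Rpsa (0.17), Rpl15 (0.16), Rps12l1 (0.15) and Rps24 (0.14) rose, and centred on the median of all tested genes the last 3 became -0.01, -0.02 and -0.02. Rps15a (-0.23), Rps27rt (-0.18) and Rpl37rt (-0.23) fell. Rps15a lay at 223, 219 and 228 TPM in DMSO and at 172, 182 and 222 TPM with dTAG-13, where a single sample overlapped DMSO. With Dox and dTAG-13 it lay at 230.4, 251 and 222 TPM, and it rose against dTAG-13 alone by 0.30, as did Rpl22 (0.21), Rps19bp1 (0.15), Rpl37a (0.15) and Rpl35a (0.13). The last 2 fall outside the rule for named genes and were chosen after their values were seen.

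The effect of 24 h of dTAG-13 in the shERV line was set against that in the time course in a single fit with an interaction over 17653 genes. The effect was higher in the shERV line for 45 of the 92 genes and lower for 1, where 26.2% of all tested genes were higher and 25.2% lower. The median difference between the effects was 0.22 log2. Among those called were Rpl39l (1.23 ± 0.20, adjusted p = 0.000243), Rps19bp1 (0.73 ± 0.08, 1.38e-05), Rps4l (0.67 ± 0.09, 6.33e-05), Rpl7l1 (0.65 ± 0.06, 3.21e-06) and, in the other direction, Rpl3l (-1.29 ± 0.20, 0.000231). Rpl3l lay at 0.834, 0.745 and 1.11 TPM in DMSO and at 0.357, 0.295 and 0.426 TPM with dTAG-13 in the shERV line. It entered this fit through the 24 h samples of the time course, where it was high, and did not pass the filter in the shERV line, so the 1 lower call is a description only. For Rpl10l the effects differed by 0.12 ± 0.12 (adjusted p = 0.429). The line, the library kit and any Dox pretreatment cannot be told apart here, and feeder markers, at 964 to 1015 summed TPM in shERV DMSO samples against 303 to 320.3 in the time course, differed as well.

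**Figure D4:**
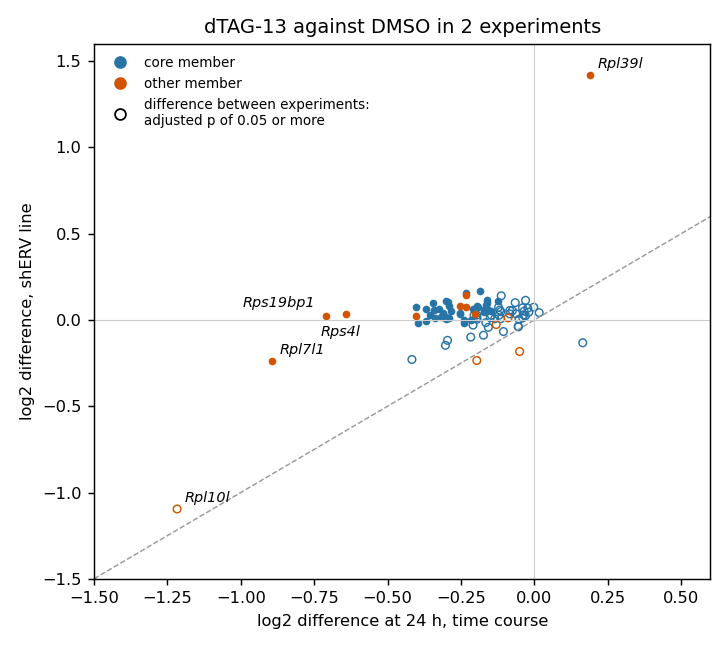
Log2 difference between dTAG-13 and DMSO at 24 h in the time course (horizontal axis) and in the shERV line (vertical axis) for the 91 genes with both values. Filled points have an adjusted p below 0.05 for the difference between the experiments, and the dashed line marks equal effects. Most core genes lie left of 0 and near 0 on the vertical axis, Rpl10l lies near the dashed line at -1.22 and -1.10, and Rpl39l stands apart at 0.19 and 1.42.

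Parental V6.5 cells held a larger share of ribosomal protein mRNA than the tagged line in DMSO, 14.6% ± 0.0696 against 13.1% ± 0.561, without overlap (exact permutation p = 0.1, the smallest possible). Of the 92 genes, 65 were higher and none lower by limma (25% of all tested genes higher, 41% lower), with a median of 0.14 beside -0.09. Without DMSO replicate 3 of the tagged line, 5 were lower, and 4 were lower without mitochondrial transcripts in the total. Trim28 itself was at 1418, 1389 and 1387 TPM in parental cells against 622, 622 and 626 TPM in the tagged line. The tag, the DMSO vehicle and the culture differ between these groups and cannot be told apart. Summed pluripotency markers were at 3295 to 3318 TPM in parental cells and at 1745 to 1814 in the tagged line, summed feeder markers at 486 to 496 and at 303 to 320.3, and the part of either in these values was not tested.

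Rpl13 had the largest difference of all core genes, at 3256, 3205 and 3218 TPM in parental cells against 2075, 2109.8 and 1952 TPM (0.66 ± 0.03, adjusted p = 1.58e-07). Rpl22l1 was at 355, 376 and 351 TPM against 231, 234 and 201 TPM (0.70 ± 0.06, adjusted p = 4.19e-06). Both genes were clear of the tagged line in every sample. Rpl3l, at 2.76, 2.33 and 2.62 TPM, was the 1 gene past 2-fold (1.07, where 2.25% of all tested genes were higher by this rule), but it passed the filter of this fit through the parental samples, so this is a description only. Rpl32l was higher by 0.67, Rps14 by 0.36, Rps4l by 0.21 and Rplp1 by 0.20. Rpl10l was at 34.8, 33.6 and 33.5 TPM, overlapping the tagged line.

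NPCs held the smallest share, 9.03% ± 0.0440 against 13.1% in the tagged mESCs, without overlap (exact permutation p = 0.1, the smallest possible). By limma 87 of 92 genes were lower and 2 higher (39.5% of all tested genes lower, 49.5% higher), with a median of -0.55 beside 0.15, and 80% of the core genes lay between -0.78 and -0.26. The 6 neural markers summed to 3269 to 3323 TPM against 80.3 to 82.1 in mESCs. Feeder markers were at 27.9 to 28.8 TPM in NPCs against 303 to 320.3 in the tagged line, and their part was not tested.

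In NPCs, 8 genes were lower past 2-fold (20.7% of all tested genes were). Rpl10l was listed at 0 in all 3 NPC samples and Rpl39l at 0.377, 0.142 and 0.0701 TPM, so that both retrogenes were at or near 0. Rps4l lay at 6.99, 8.16 and 8.39 TPM (-6.42 ± 0.06) while its X-linked relative Rps4x fell by 0.23. Rpl12 fell from 2017, 2062 and 1954 TPM to 836, 824 and 839 TPM (-1.27 ± 0.03, adjusted p = 4e-11), Rpl4 from 3246, 3196 and 3153 TPM to 1501, 1528 and 1524 TPM (-1.08), and Rpl22 to 294, 281 and 279 TPM (-1.04). These 3 were the core genes past 2-fold. The last 2 were Rpl3l (-1.40), tested in this fit through its parental samples, and Rps12l1, at 22.9, 23.8 and 22.1 TPM (-2.00).

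Among the remaining core genes, Rps12 fell by 0.99, Rplp0 by 0.96, Rplp1 by 0.93, Rps2 by 0.81, Rpl36a by 0.76, Rpl10 by 0.71 and Rplp2 by 0.71. Rpl5 (-0.49), Rpl11 (-0.46), Rps9 (-0.39) and Rps19 (-0.35) fell less. Rpl41, the shortest ribosomal protein, showed a difference of -0.01 (adjusted p = 0.857). The genes called higher were Rps24, at 2676, 2722 and 2795 TPM against 2664, 2469.8 and 2077 TPM (0.19, adjusted p = 0.0447), and Rpl22l1 (0.15). Centred on the median of all tested genes, these became -0.21 and -0.24, and without NPC replicate 2 or 3 neither passed the test. With DMSO replicate 2 or 3, NPC replicate 1 or any 1 parental library left out, a single gene was called higher.

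At chromatin, the starts of ribosomal protein genes carried the marks of active promoters. A gene was counted where a deposited peak lay within 1000 bp of its start. An H3K27Ac peak was present at 83, 83 and 82 of the 92 starts in the 3 DMSO libraries and at 79, 83 and 81 at 24 h, while 65.4%, 66.1% and 63.4% of the genes tested in the time course had 1 in DMSO and 43.4%, 67.5% and 44.5% at 24 h. RNAPII peaks were at 81 and 81 starts in DMSO and at 77 and 77 at 24 h (54.2% and 54.3% of the tested genes, then 30.9% and 28.2%). MED23 peaks were at 82 and 82 starts in DMSO and at 69 and 63 at 24 h (73.9% and 73.9%, then 25% and 22.5%). The numbers of deposited peaks were lower as well, from 63045 and 58925 to 15335 and 14551 for MED23 and from 19853 and 19194 to 8182 and 7689 for RNAPII. The exact permutation p was 0.4 for H3K27Ac, and 0.33 for both RNAPII and MED23, the smallest that 2 against 2 libraries allow. Among the 10000 highest peaks of each library, MED23 peaks were at 66 and 60 starts in DMSO and at 28 and 28 at 24 h. Of the tested genes, 24.4% and 24.6% had such a peak in DMSO and 11.9% and 11.2% at 24 h, so these were lower as well.

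The H3K27Ac, RNAPII and MED23 peaks at these starts were also higher in DMSO than at tested genes with a peak. At 24 h this held for H3K27Ac and RNAPII but not for MED23. The median fold enrichment over the caller's background was 26.0 and 23.7 for RNAPII in DMSO, where it was 8.56 and 8.25 over tested genes with a peak, and 13.2 and 10.8 at 24 h (5.66 and 5.55). For MED23 it went from 13.5 and 12.9 (tested genes 7.89 and 7.71) to 4.23 and 4.26, close to the tested genes at 24 h (4.28 and 4.43). H3K27Ac stood at 15.0, 15.6 and 15.7 in DMSO and at 7.86, 16.4 and 5.22 at 24 h, where replicate 2, with 117348 peaks against 30259 and 45662, lay at the level of DMSO. Over tested genes with a peak, H3K27Ac stood at 6.33, 6.45 and 6.68 in DMSO and at 5.02, 7.24 and 3.31 at 24 h. Fold enrichment is computed within each library, the deposited peaks carry no spike-in scaling, and the part of peak number and background in these differences was not tested.

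All 77 core genes had an H3K27Ac peak in every DMSO library, 76 an RNAPII peak and 77 a MED23 peak. At 24 h these numbers were 75, 73 and 60. The core genes without an RNAPII peak at 24 h were Rps10, Rps2, Rps24 and Rpl3, and Rps10 had none in DMSO either. For Rps10, Rps2 and Rps24, which had no MED23 peak at 24 h either, the RefSeq start lay outside the peak window. It was 1425, 1947 and 3553 bp from the annotated gene start. Rpl18, at 2614 bp, had peaks of all 3 kinds in every library. The part of the start position in these absences was not tested. Rps4l and Rpl7l1 kept peaks of all 3 kinds in every library, and Rpl22 and Rpl22l1 had MED23 peaks in both DMSO libraries and in neither at 24 h. Rpl10l had none of the active marks in any library. It was the 1 gene with an H3K9me3 peak in all 3 DMSO libraries, at 3.10-, 2.26- and 2.85-fold enrichment, and at 24 h a peak was found in replicate 2 only, at 2.61-fold. Across the set H3K9me3 peaks were at 8, 7 and 7 starts in DMSO and at 0, 13 and 1 at 24 h (exact permutation p = 0.5), beside 5.12%, 4.71% and 4% and then 0.452%, 2.81% and 2.3% of the tested genes, and the numbers of deposited H3K9me3 peaks at 24 h, 11474, 105690 and 147611, were as uneven.

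**Figure D5:**
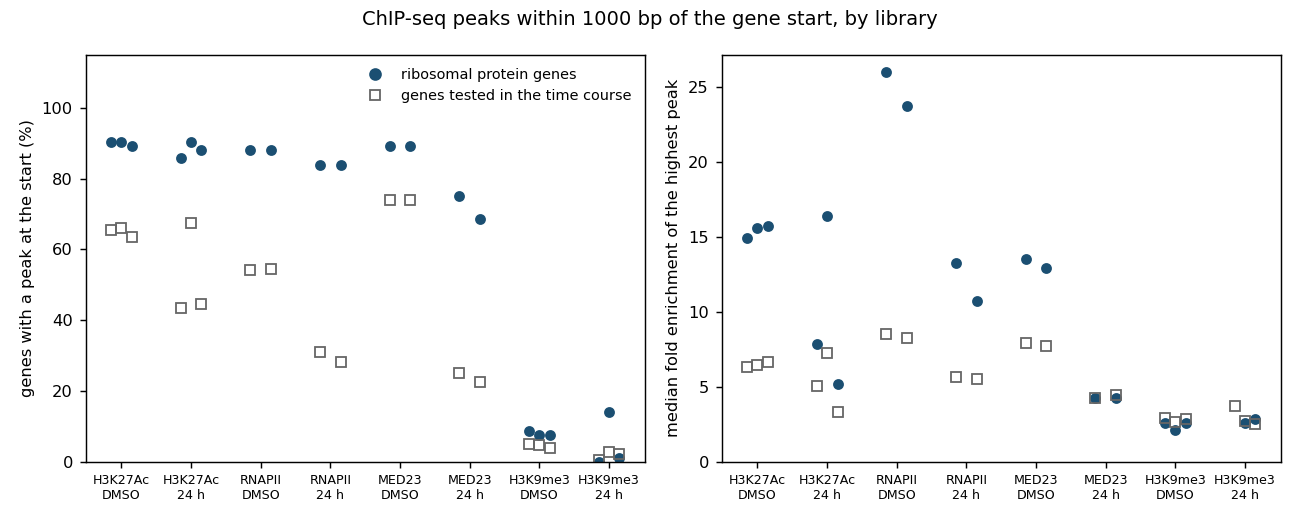
Percent of genes with a ChIP-seq peak within 1000 bp of the start (left) and median fold enrichment of the highest peak (right) for the 92 ribosomal protein genes (circles) and the genes tested in the time course (squares), 1 mark per library. RNAPII enrichment at ribosomal protein genes was 23.7 and 26.0 in DMSO and 10.8 and 13.2 at 24 h, and MED23 peaks went from 82 and 82 of the 92 starts to 69 and 63.

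Genes that act with ribosomal proteins were read from fixed lists. Of 57 ribosome biogenesis genes tested, 21 fell and 4 rose at 6 h (all tested genes, 15.5% lower and 18.4% higher), and 56 fell and none rose at 24 h (25% and 42.9%), with a median of -0.63. At 96 h, 55 fell and 1 rose (37.4% and 42.9%), 33 of those that fell past 2-fold (12.4% of all tested genes), with a median of -1.07. In the shERV line 36 fell and 1 rose with dTAG-13 (12.8% and 41.2%, median -0.18), and 40 rose and none fell with Dox and dTAG-13 against dTAG-13 (17.5% higher and 29.3% lower, median 0.21). Utp4, a factor of the early small-subunit particle, went from 199.7, 198 and 195 TPM in DMSO to 91.3, 88.3 and 89.7 TPM at 24 h (-1.13 ± 0.03), without overlap. Nip7 fell by 1.10, and Bop1 and Nolc1, which act in large-subunit maturation and in nucleolar assembly, fell by 1.06 each. The same list had a median of -1.18 in NPCs, with 57 of 57 lower (39.5% of all tested genes), Ncl among them at -1.84.

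Of 40 translation factors, 32 fell and 3 rose at 24 h (25% of all tested genes lower, 42.9% higher), 30 fell and 3 rose at 96 h (37.4% and 42.9%), and 33 were lower and 5 higher in NPCs (39.5% and 49.5%), with medians of -0.41, -0.39 and -0.50. Eif2s2, the beta subunit of the initiation factor that carries the initiator tRNA, fell by 0.71 at 24 h and by 1.01 at 96 h. Of 78 mitochondrial ribosomal protein genes, 64 fell and 2 rose at 24 h (median -0.41) and 55 fell and 9 rose at 96 h (-0.42), beside the same shares of all tested genes. Fau, which is made as a ubiquitin-like fusion, and Rack1 encode ribosome components with symbols outside the naming series. They fell at 24 h by 0.31 and 0.21. At 96 h Rack1 fell by 0.34, while Fau had a difference of -0.11 (adjusted p = 0.0509, limma). Both were higher in parental cells (0.10 and 0.13) and lower in NPCs (-0.71 and -0.68). These lists were written with earlier results of these data known.

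Levels of the Myc family were also measured. Myc was measured at 130.3, 121 and 123 TPM in DMSO and at 19.5, 18.8 and 22.3 TPM at 24 h (-2.60), and lay at -2.17 at 96 h and -2.62 in NPCs. Mycn was at 211, 211 and 201 TPM in DMSO and at 49.4, 46.5 and 51.8 TPM at 24 h (-2.07), and at -3.20 at 96 h and -2.48 in NPCs. Mycl moved the other way, by 0.43 at 24 h, 0.51 at 96 h and 3.27 in NPCs. In the shERV line the differences with dTAG-13 were -0.45 for Myc and -1.53 for Mycn, and with Dox added, against dTAG-13 alone, 0.45 and 1.40. In parental cells the differences were -2.02 for Myc, 0.08 for Mycn and -0.44 for Mycl. The part of the Myc family in the levels of ribosomal protein genes was not tested.

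Over the 15 time-course libraries, the genes outside the set whose log2 TPM followed the log2 summed TPM of the 92 genes most closely were Eef1g (Pearson r = 0.987), a subunit of elongation factor 1, Atp5a1 (0.983), Adh5 (0.982), Slc25a39 (0.979) and the ribosomal protein pseudogene Rpl10-ps6 (0.976). Eef1g went from 1364, 1375 and 1289.6 TPM in DMSO to 991, 994 and 1005 TPM at 96 h. Within the set, Rpl8 (0.990) and Rps27a (0.987) were nearest to the sum, and Rps19 (-0.06), Rpl32l (-0.04) and Rpl39l (0.00) farthest from it. The libraries share conditions, so these values describe likeness and carry no p.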

How the data were processed

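For RNA-seq, the authors aligned reads with STAR 2.7.5a after trimming with cutadapt 2.4 and deposited, for every library, TPM and FPKM per gene from StringTie 2.0.6, on mm10. The deposited coverage signal carries no depth scaling and gave the relative depth of libraries. For TT-SLAM-seq, the authors deposited FPKM from reads with T-to-C conversions, with no spike-in scaling. Multiplied by genomic span and divided by a step estimated for each library, the values are whole reads (98.3% to 99.4% of low values within 0.1). For ChIP-seq, each deposited peak, called per library, has a fold enrichment over background, and -log10 p and -log10 q values by the authors' peak caller. Peaks were ranked by fold enrichment, and the p and q values were not used. Settings of these tools are not given in the sources used here.

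Genes were tested on log2(value + 0.5) in R 4.3.3 with the trended empirical Bayes method of limma 3.58.1, after a filter of at least 1 TPM (0.5 FPKM) in at least 3 libraries. The libraries of TT-SLAM-seq (12), the time course (15), the shERV line (9), and tagged DMSO, parental cells and NPCs (9) were fitted apart, and tests were tried on simulated data. Shares were compared with a two-sided exact permutation test. Values were recomputed with other pseudocounts, filters, units and scalings, with a replicate block, and without each library. Groups came from the labels, where all 3 shERV groups are labelled as pretreated with Dox for 24 h. Gene IDs repeated in a table were summed, and none is a member. Genes named are those with the roles described, the highest and lowest 3, the 5 largest rises and falls per comparison whose groups do not overlap, and all past 2-fold, except that some are not reported here. The members and lists were chosen with earlier results of these data known.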

Additional observations from a re-analysis of the deposited data

Results flagged for a closer look

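Between the 2 experiments with 24 h of dTAG-13, the shERV line and the time course, the effect on ribosomal protein genes differed by an interaction in limma (adjusted p below 0.05). It was higher in the shERV line for 45 members and lower for 1, beside 26.2% of all tested genes higher and 25.2% lower. The sizes of the difference (shERV minus time course, log2) were 1.23 for Rpl39l, 0.73 for Rps19bp1, 0.67 for Rps4l, 0.65 for Rpl7l1 and -1.29 for Rpl3l, which is at or under 2 TPM in both experiments, entered the fit through the 24 h samples of the time course, where it was high, and is therefore a description only. Line, library kit and Dox pretreatment cannot be told apart in these values, and the feeder markers differed between the experiments as well.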

How the results depend on the processing

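Of 233 recomputed counts and differences outside those that leave out a library, 193 were labelled the same, 39 moved and 1 reversed. A count was the same within 1.5 times its main value. A difference of shares or peak numbers was the same if its sign did not reverse, whatever its size. Of 1512 recomputed values of single genes, 1396 kept direction and side of the threshold, 109 were no longer called and 7 reversed. Rescaling without Gm26917 or without mitochondrially encoded genes was chosen after seeing the data. For every other setting and every library left out, the share of all tested genes called is not reported here. The member counts under them therefore have no background beside them.

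In nascent RNA at 2 h, the 0 members lower became 1 with a pseudocount of 0.1, 1 centred on the median of all tested genes, 1 with the replicate block and 6 by voom. At 6 h the 7 lower became 2 with a mean of at least 5, 20 centred, 0 without Gm26917 and 68 by voom. At 24 h the 13 lower became 7, 53, 3 and 74 under the same settings, and the 1 higher became 0 with a mean of at least 5, 2 with the block and 2 without Gm26917, where the share difference was -0.1375 points.

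In RNA-seq, members higher at 6 h became 1 with a pseudocount of 1 and 1 without mitochondrial genes, those at 24 h became 0 with a mean of at least 5, 0 in FPKM and 2 without mitochondrial genes, and those at 96 h became 0 without a filter, centred, in FPKM and without mitochondrial genes. In the shERV line, members higher with dTAG-13 became 2 without a filter, 1 centred and 1 in FPKM, and those lower 3, 72 and 11, and those higher with Dox against dTAG-13 became 4, 52 and 14. Members lower in parental cells became 4 without mitochondrial genes, those higher in NPCs became 0 without a filter, 0 centred, 1 with the block and 0 in FPKM, and those higher in the interaction became 74 centred. Single genes reversed when centred were Rpl15 (-0.0083), Rps12l1 (-0.0172) and Rps24 (-0.0241) in the shERV line, Rps19 at 96 h (-0.1338), and in NPCs Rps24 (-0.2055) and Rpl22l1 (-0.2438, and -0.0063 in FPKM). The cause of these moves was not tested.

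Leaving out 1 library, members lower ranged in nascent RNA from 0 to 2, 0 to 30 and 4 to 34 at 2, 6 and 24 h (higher at 24 h 0 to 2), and in RNA-seq from 0 to 4, 51 to 73, 47 to 63 and 81 to 86 at 2, 6, 24 and 96 h (higher 0 to 1 at 6 h, 1 to 2 at 24 h and 0 to 1 at 96 h). In the shERV line they ranged from 1 to 7 higher and 2 to 11 lower with dTAG-13, and 4 to 15 higher and 1 to 4 lower with Dox against dTAG-13. In parental cells they ranged from 55 to 68 higher and 0 to 5 lower, in NPCs from 0 to 2 higher and 86 to 87 lower, and in the interaction from 34 to 52 higher. The share difference with dTAG-13 in the shERV line ranged from -0.1062 to 0.4434 points.

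Replicate numbers showed little pairing of the time-course RNA-seq samples. Deviations of samples with the same number in RNA-seq correlated with a median r of 0.0256, from -0.0576 to 0.1225, against -0.0179 for different numbers. In nascent RNA the median r was 0.0187, from -0.1577 to 0.177, against -0.0138. There the members' share of summed FPKM was lowest in replicate 3 in DMSO (0.806%), at 2 h (0.661%) and at 24 h (0.962%), but in replicate 2 at 6 h (0.776%). Whether replicate numbers mark a batch was not tested. With the replicate block, 17 members were lower at 24 h in nascent RNA, 58 in RNA-seq and 60 were higher in parental cells, and the interaction gave 36 higher and 1 lower. In nascent RNA 7 members did not pass the filter.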
